A study of Homo sapiens with 18 samples.

Results

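AREG encodes amphiregulin, a growth factor that binds the epidermal growth factor receptor (EGFR). It was examined here together with 4 other EGFR ligands (EREG, HBEGF, TGFA and BTC) and 3 ERBB receptors (EGFR, ERBB2 and ERBB3), 8 of the 58302 genes in the expression table. AREG was chosen because its rise after NAT10 knockdown (KD) was among the leading rises in these same libraries, so its difference between the groups is given as a description without a test. The other 7 belong to the same ligand and receptor families, and they too were listed with earlier results of these data known. EGFR ligands are made as transmembrane precursors and are cut from the cell surface by ADAM proteases. A bound ligand brings ERBB receptors together as dimers, which signal through the RAS-ERK and PI3K-AKT arms, and ERK in turn induces genes that restrain the pathway. In pancreatic ductal cells EGFR and its ligands act upstream of RAS.

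All libraries came from PANC-1, a human pancreatic ductal adenocarcinoma cell line, infected with lentivirus that carried either a control vector (shCtrl) or a short hairpin RNA against NAT10 (shNAT10), the acetyltransferase that writes N4-acetylcytidine (ac4C) on RNA. The labels call the control vector empty, whereas the reagents of the study list a hairpin without a target. RNA-seq was done on 3 shCtrl and 3 shNAT10 libraries. For acRIP-seq, in which fragmented RNA is pulled down with an ac4C antibody (IP) and compared with the fragments before pull-down (input), each group had 3 IP and 3 input libraries, and 1 list of peaks was analysed per group. The knockdown carried a single hairpin label, the labels do not say whether replicates were separate cultures, and p-values therefore measure the spread between these libraries, which may be technical. RNA was pooled over many cells, so a change in every cell and a change in some cells cannot be told apart.

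Expression is in FPKM, fragments scaled to transcript length and to the size of the library. Whole reads could be recovered from the steps of the FPKM values for 29693 of 29695 genes above 0, with 15764155 to 23423458 reads per library. NAT10 itself was at 31.6, 27.7 and 28.6 FPKM in shCtrl cells and at 7.92, 8.43 and 7.90 FPKM in shNAT10 cells (log2 fold change -1.84, limma adjusted p = 3.85e-05). Of the 8 markers listed for a ductal epithelial line, 7 were at 1 FPKM or more in every library. These 7 moved in both directions. The keratin genes KRT7, KRT8, KRT18 and KRT19 fell (log2 fold change -1.18 to -0.83), EPCAM (2.20) and SOX9 (0.19, limma adjusted p = 0.0498) rose, and MUC1 (0.17) did not pass the test. The summed level of the list, carried by KRT8, KRT18 and KRT19, was 2830 to 3790 FPKM in shCtrl cells and 1539 to 1720 FPKM in shNAT10 cells, and the part of these markers in the results below was not tested. The 13 markers of acinar, endocrine, leukocyte, endothelial, fibroblast and liver cells together reached at most 0.568 FPKM in any library. One library stood apart: relative to the other shCtrl libraries, shCtrl replicate 2 had a median log2 difference of 0.29 in the 3247 genes with the shortest transcripts (up to 1948 bases) and of -0.28 in the 3246 with the longest (5033 bases or more).

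AREG and EREG lie next to each other in a cluster of EGFR ligand genes on chromosome 4, with EPGN and BTC on either side. The 250 bases before their transcription starts are shown because these genes, which neighbour each other, were both higher in shNAT10 cells (RefSeq promoters, GRCh38.p14, plus strand, AREG chr4:74444886-74445135 and EREG chr4:74364895-74365144). Capitals mark matches, on either strand, to any of 5 motifs: a cAMP response element, an AP-1 site, a TATA box, a GC box and the core of an interferon-stimulated response element. No matches overlapped.
AREG promoter: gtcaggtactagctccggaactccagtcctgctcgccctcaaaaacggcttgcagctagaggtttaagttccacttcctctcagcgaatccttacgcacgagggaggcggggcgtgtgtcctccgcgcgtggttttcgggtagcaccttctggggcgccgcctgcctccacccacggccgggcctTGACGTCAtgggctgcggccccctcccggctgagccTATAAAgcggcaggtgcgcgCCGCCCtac
EREG promoter: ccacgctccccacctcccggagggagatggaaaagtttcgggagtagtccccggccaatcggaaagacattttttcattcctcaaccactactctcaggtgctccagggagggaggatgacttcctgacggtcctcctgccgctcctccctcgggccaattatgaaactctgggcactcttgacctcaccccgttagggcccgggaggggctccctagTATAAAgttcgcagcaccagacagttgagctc
Both held a TATA box (TATAAA), which began 29 bases before the start of AREG and 32 bases before the start of EREG and was present in 10.7% of 35116 promoters of the same length. The AREG promoter also held a cAMP response element (TGACGTCA) 65 to 58 bases before the start, present in 1.65% of promoters, and a GC box (GGGCGG) on the opposite strand, present in 42.6%. Neither promoter held a match to an AP-1 site (TGANTCA, in 6.57% of promoters) or to the interferon-response core (3.02%). Matches are a description of these letters, and no factor was measured at them.

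The mRNA of 2 ligands, AREG and EREG, was higher in shNAT10 cells, while the values of EGFR, ERBB2 and ERBB3 overlapped between the groups. HBEGF was at lower values without being called, and TGFA, under 1 FPKM in every library and not tested, was at higher values. AREG (ENSG00000109321; GRCh38, chr4:74445134-74455009, plus strand) was at 1.35, 1.39 and 1.20 FPKM in the shCtrl libraries and at 7.34, 8.01 and 8.80 FPKM in the shNAT10 libraries, from 29, 35 and 35 reads and from 144, 193 and 193 reads. Every shNAT10 value was above every shCtrl value. The mean went from 1.31 ± 0.102 FPKM (SD, n = 3) to 8.05 ± 0.735 FPKM (SD, n = 3), a ratio of 6.12 and a log2 fold change of 2.53 (standard error 0.11). Fold changes are on the log2(FPKM + 0.1) scale, and with a pseudocount of 1 that of AREG was 1.96. By log2 fold change AREG ranked 2 of 11018 protein-coding genes that passed the filter of at least 1 FPKM in 3 libraries. The plot of expression by library shows the 8 genes side by side.

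**Figure D1:**
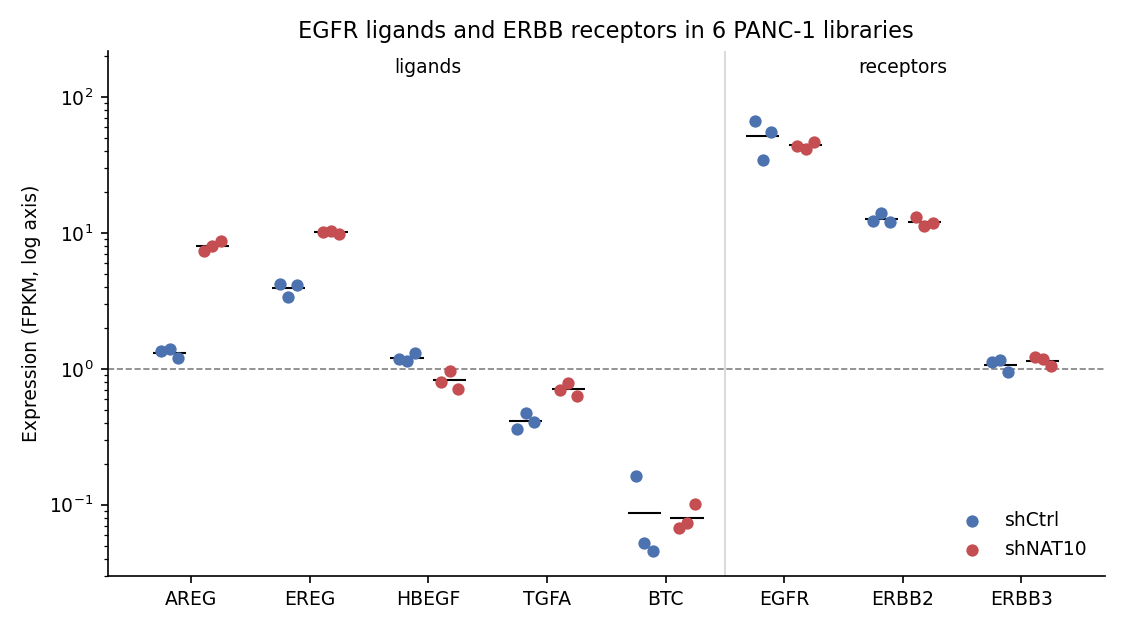
Expression of 5 EGFR ligands and 3 ERBB receptors in each of 3 shCtrl and 3 shNAT10 libraries (points, FPKM on a log axis), with group means as black lines and the 1 FPKM filter as a dashed line. AREG moved from 1.20-1.39 to 7.34-8.80 FPKM and EREG from 3.40-4.23 to 9.91-10.3 FPKM, while the receptors overlapped between the groups.

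EREG (ENSG00000124882; chr4:74365143-74388751, plus strand) encodes epiregulin, which binds EGFR and ERBB4. It was at 4.23, 3.40 and 4.14 FPKM in shCtrl cells and at 10.1, 10.3 and 9.91 FPKM in shNAT10 cells, from 318 to 450 reads and from 742 to 927 reads. The groups did not overlap, and the shNAT10 values lay within a narrow range. EREG rose by 1.35 on the log2 scale (SE 0.10, limma adjusted p = 0.000167), which was 1.25 without shCtrl replicate 2. Of the 5 members other than AREG that passed the filter, EREG was the single call at an adjusted p under 0.05 in the higher direction, where 20.8% of all 12982 tested genes were called, and it also passed a log2 fold change of 1, as did 2.91% of tested genes. Over all tested genes 2699 were called higher and 2751 lower, and with values rescaled to the same total in every library (TPM), which moved the median log2 fold change of all genes from -0.01 to 0.10, the split was 3355 to 2075.

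HBEGF (ENSG00000113070; chr5:140332843-140346631, minus strand) encodes heparin-binding EGF-like growth factor, another ligand of EGFR and ERBB4. It was at 1.18, 1.14 and 1.30 FPKM in shCtrl cells and at 0.794, 0.970 and 0.711 FPKM in shNAT10 cells, from 30 to 73 reads per library. The shNAT10 values were all below the shCtrl values. The log2 fold change was -0.51 (95% interval -0.99 to -0.02, limma adjusted p = 0.0868), and without the mean-variance trend the adjusted p was 0.0189. HBEGF passed the filter only through the shCtrl libraries, so a lower shNAT10 value was built into its passing. None of these 5 members was called lower at an adjusted p under 0.05 by limma, against 21.2% of tested genes. The unadjusted p of HBEGF in the same limma fit was 0.0430. A fit to the recovered reads by voom called 0 of 5 lower, beside 2691 of all 12982 tested genes. Separation of the groups alone was common, with all shNAT10 values higher in 27.9% of tested genes and lower in 28.6%.

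TGFA and BTC were below the filter and were not tested. TGFA (ENSG00000163235; chr2:70447280-70554193, minus strand), which encodes transforming growth factor alpha, was at 0.361, 0.470 and 0.404 FPKM in shCtrl cells and at 0.703, 0.788 and 0.630 FPKM in shNAT10 cells, from 27 to 41 reads and from 48 to 66 reads. Its values did not overlap between the groups, with a ratio of means of 1.72. BTC (ENSG00000174808; chr4:74744759-74794686, minus strand), which encodes betacellulin, had 8, 3 and 3 reads in shCtrl cells and 3, 4 and 5 reads in shNAT10 cells, at most 0.164 FPKM, and no difference could be measured at this depth.

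Summed over the 5 ligands, expression was 7.29, 6.46 and 7.09 FPKM in shCtrl cells and 19.0, 20.2 and 20.2 FPKM in shNAT10 cells. EREG made up most of the sum in shCtrl cells (52.7% to 58.4%) and 49.2% to 53.3% of it in shNAT10 cells. The share of AREG went from 16.9%-21.6% to 38.5%-43.7%, while that of HBEGF went from 16.2%-18.3% to 3.53%-4.81%. AREG and EREG together therefore accounted for nearly all ligand FPKM in shNAT10 cells, as the stacked bars show. Because the sum contains AREG, it is a description. A share also falls when the sum rises, and HBEGF itself had a ratio of means of 0.683 and was not called.

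**Figure D2:**
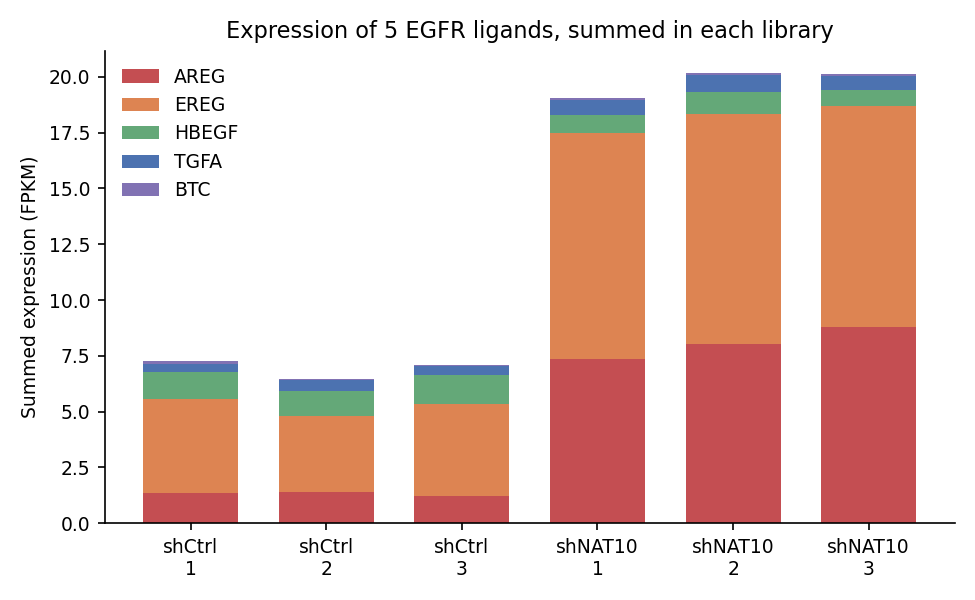
Expression of AREG, EREG, HBEGF, TGFA and BTC stacked for each library (FPKM). The sum was 6.46-7.29 FPKM in the 3 shCtrl libraries and 19.0-20.2 FPKM in the 3 shNAT10 libraries, with AREG (bottom segment) at 38.5% or more of each shNAT10 bar.

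EGFR (ENSG00000146648; chr7:55019021-55211628, plus strand), the receptor of all 5 ligands, was at 67.3, 34.2 and 55.0 FPKM in shCtrl cells and at 44.0, 41.9 and 46.6 FPKM in shNAT10 cells. The shNAT10 values fell between the lowest and the middle shCtrl value, and the spread was wide in shCtrl cells (SD 16.7 FPKM against 2.36 FPKM). The log2 fold change was -0.19 (95% interval -0.72 to 0.35, limma adjusted p = 0.540). This value rested on single shCtrl libraries. Without shCtrl replicate 2, EGFR was called lower (-0.46, limma adjusted p = 0.00425), and without shCtrl replicate 1 the sign turned (0.025, limma adjusted p = 0.923). EGFR, with a transcript of 9821 bases, was 0.83 lower on the log2 scale in shCtrl replicate 2 than in the other shCtrl libraries, where the genes with the longest transcripts had a median of -0.28. Of the exon bases of EGFR, 1.49% overlap EGFR-AS1 on the opposite strand.

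ERBB2 (ENSG00000141736; chr17:39687914-39730426, plus strand) encodes the receptor that binds no known ligand and serves as a dimer partner. It was at 12.3, 13.9 and 12.1 FPKM in shCtrl cells and at 13.2, 11.3 and 11.8 FPKM in shNAT10 cells, so that the groups overlapped. The log2 fold change was -0.08 (95% interval -0.30 to 0.14, limma adjusted p = 0.521), and its sign turned on the TPM scale (0.029). Exons of MIEN1 and PGAP3 on the opposite strand overlap 7.41% of its exon bases, and whether the counting used strand is not given in the sources used here. ERBB3 (ENSG00000065361; chr12:56076799-56103505, plus strand), whose own kinase is weak and which binds neuregulins, was at 1.12, 1.16 and 0.941 FPKM in shCtrl cells and at 1.22, 1.18 and 1.05 FPKM in shNAT10 cells. These values overlapped too, with a log2 fold change of 0.09 (95% interval -0.34 to 0.53, limma adjusted p = 0.713). For the 3 receptors the intervals allow changes in either direction.

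Ordered by FPKM, EGFR was the highest of the 8 genes in both groups, followed by ERBB2 and EREG. In shCtrl cells AREG ranked 4 of 8 at 1.31 FPKM, and its values overlapped those of HBEGF, which in turn overlapped those of ERBB3. In shNAT10 cells AREG, again in place 4, lay below EREG (7.34-8.80 against 9.91-10.3 FPKM) and above ERBB3 (1.05-1.22 FPKM) without overlap. HBEGF and TGFA, which did not overlap in shCtrl cells, overlapped in shNAT10 cells. EGFR made up 69.4% to 83.3% of the FPKM of the 3 receptors in shCtrl cells and 75.3% to 78.4% in shNAT10 cells. ERBB4, the remaining receptor of the family, did not exceed 0.0156 FPKM.

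Within 500 kb of the start of AREG, 18 genes start, 11 of them protein-coding, and 4 passed the filter. These 4 were AREG, EREG, MTHFD2L and PARM1. PARM1, which encodes a mucin-like membrane protein, starts at 488 kb from the start of AREG and was at 0.874, 0.858 and 0.993 FPKM in shCtrl cells and at 3.29, 2.74 and 2.66 FPKM in shNAT10 cells. It rose by 1.57 on the log2 scale (SE 0.15, limma adjusted p = 0.000413), but passed the filter only through the shNAT10 libraries. MTHFD2L, which encodes a mitochondrial folate enzyme and starts at -331 kb on the other side, was at 1.96 to 2.03 FPKM and at 2.12 to 2.77 FPKM (log2 fold change 0.27, limma adjusted p = 0.149). The 7 coding genes below the filter, among them EPGN, BTC and the chemokine genes CXCL2, CXCL3 and CXCL5, did not exceed 0.568 FPKM. The plot of the region shows EPGN and BTC, the other EGFR ligand genes of the cluster, near 0 in all 6 libraries.

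**Figure D3:**
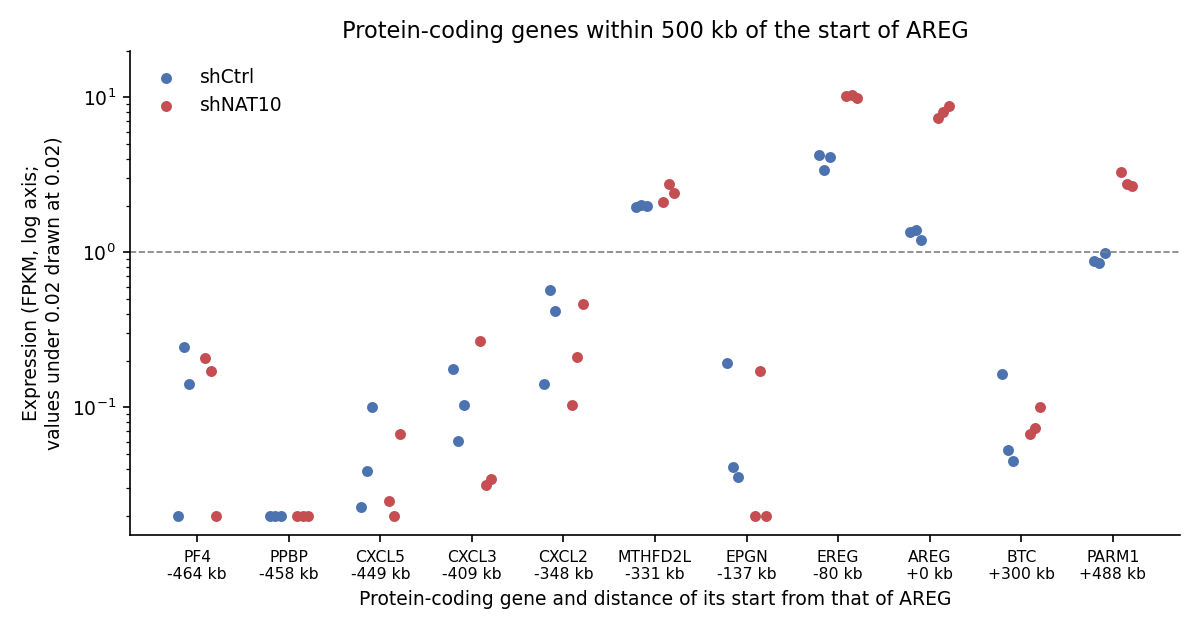
Expression of the 11 protein-coding genes that start within 500 kb of AREG in 3 shCtrl and 3 shNAT10 libraries (points, FPKM on a log axis, values under 0.02 drawn at 0.02), ordered along chromosome 4, with the 1 FPKM filter as a dashed line. AREG, EREG and PARM1 were higher in every shNAT10 library, with a log2 fold change above 1, and MTHFD2L was at 1.96-2.03 and 2.12-2.77 FPKM. PARM1 passed the filter only through the shNAT10 libraries.

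The 5 protein-coding genes whose pattern was most like that of AREG, by the smallest root mean square difference of log2 values relative to each gene's shCtrl mean over the 6 libraries, were CAPN8 (0.16), BICD2 (0.19), EPCAM (0.31), KIF1C (0.32) and SETD7 (0.32). CAPN8, a calpain protease, was at 0.262 to 0.377 FPKM in shCtrl cells and at 1.98 to 2.28 FPKM in shNAT10 cells. It passed the filter only through the shNAT10 libraries, so a higher shNAT10 value was built into its passing. BICD2, an adaptor of the dynein motor, was at 1.91 to 2.56 FPKM and at 11.6 to 12.3 FPKM. EPCAM, an epithelial adhesion molecule that is also among the ductal markers, was at 4.01 to 5.55 FPKM and at 21.1 to 24.2 FPKM. SETD7 lies on chromosome 4, as AREG does, and the others lie elsewhere. By the same measure EREG ranked 77 of 11017 genes (0.85), and the remaining 4 tested members had differences of 1.72 to 2.15.

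Of 73 further genes of the EGFR pathway, 63 passed the filter, with 10 called higher, 16 called lower and 37 not called at an adjusted p under 0.05 from limma. The shares, 15.9% higher and 25.4% lower, stood beside 20.8% and 21.2% of all tested genes, and the median log2 fold change was -0.07 against -0.01. CCND1, ADAM17 and FRMD8 fell past a log2 fold change of -1, which 3.57% of tested genes did, and no gene of the list rose past 1. Without shCtrl replicate 2, 27 genes of the list were called lower and 10 higher. In that setting 3318 of all 12982 tested genes were called lower and 3303 higher.

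Expression of genes for ligand shedding was lower in shNAT10 cells for 4 of 5 genes, beside 21.2% of all tested genes called lower. ADAM17, the main protease that releases amphiregulin, was at 17.5, 11.7 and 15.7 FPKM in shCtrl cells and at 6.07, 6.47 and 6.61 FPKM in shNAT10 cells (log2 fold change -1.20, limma adjusted p = 0.000955). FRMD8, which stabilises the ADAM17 complex at the cell surface, was at 22.4, 26.4 and 22.6 FPKM and at 11.9, 11.2 and 10.5 FPKM (-1.08, limma adjusted p = 0.000264). The groups did not overlap for either gene. ADAM10 (-0.77) and RHBDF1 (-0.56) also fell, whereas RHBDF2, a partner of ADAM17 like RHBDF1, had a log2 fold change of 0.01 (limma adjusted p = 0.911). AREG and EREG mRNA were at higher levels in the same libraries in which ADAM17 mRNA was lower, and shed protein was not measured.

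**Figure D4:**
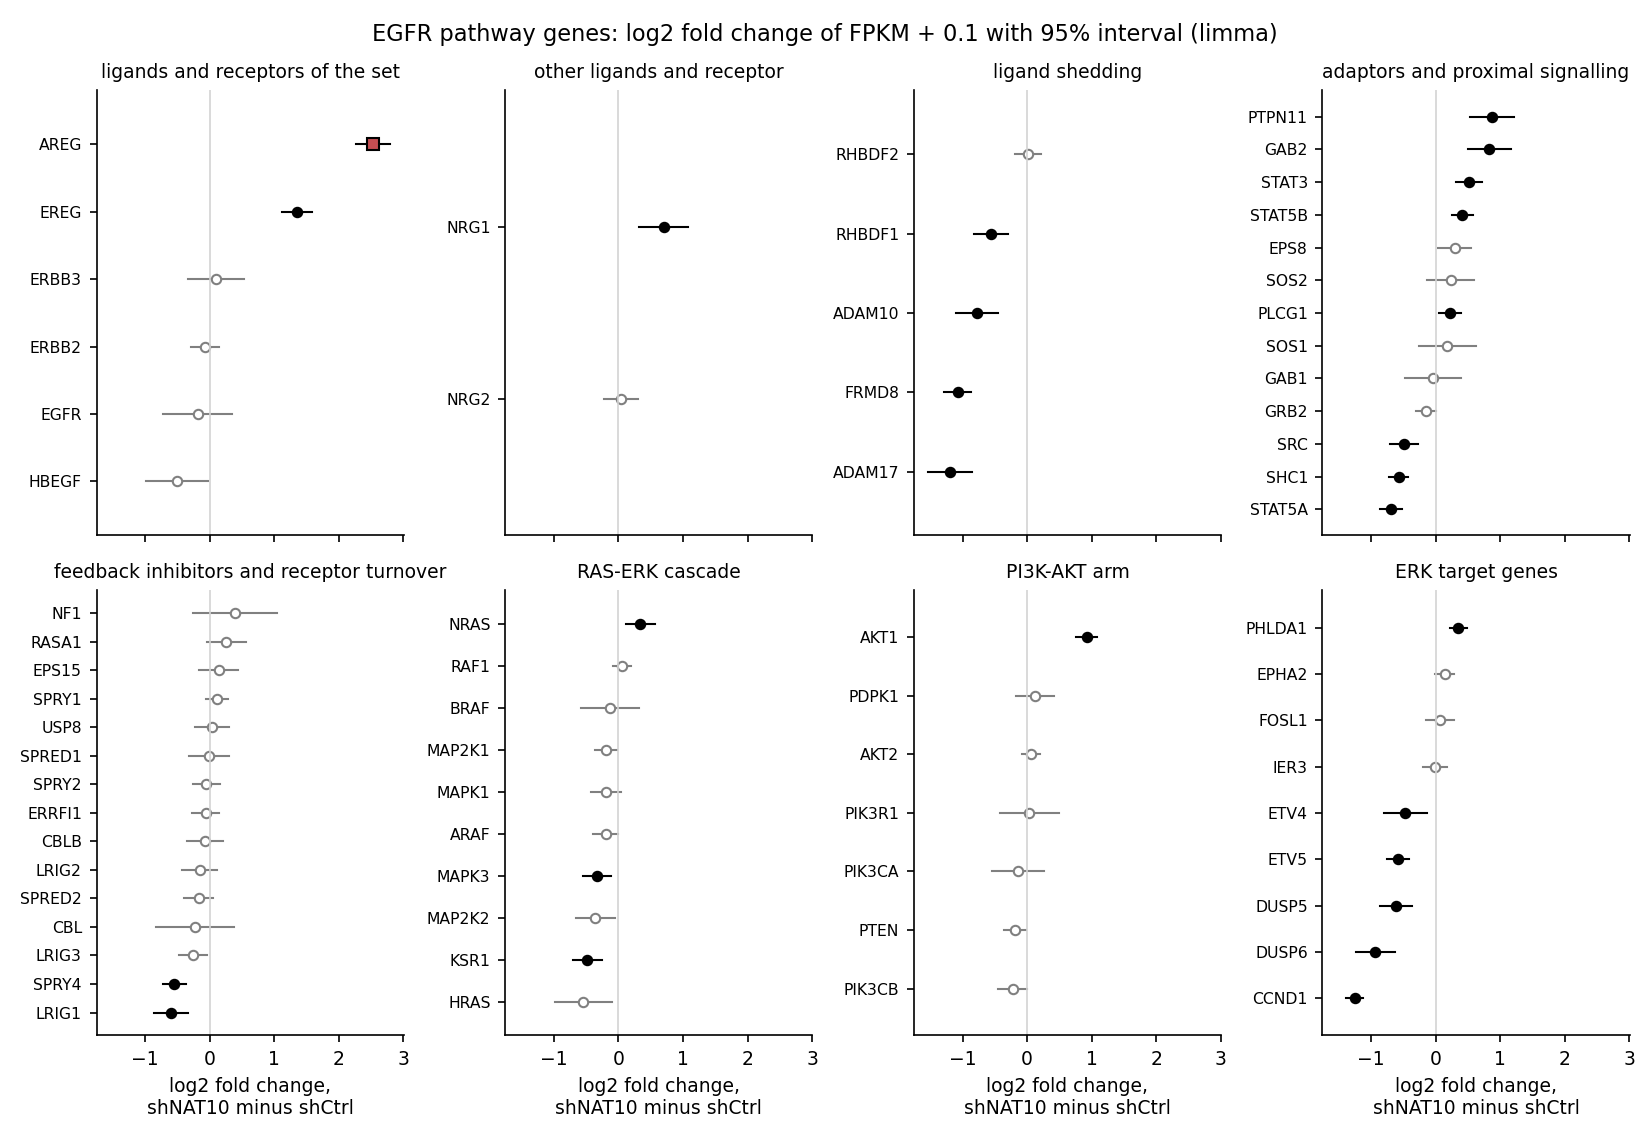
Log2 fold change of FPKM + 0.1 (shNAT10 minus shCtrl, x axis) with its 95% interval from limma for 6 members and genes of the pathway list, by class. Filled circles passed an adjusted p under 0.05, open circles did not, and the square marks AREG, which was chosen by its rise and not tested. The interval drawn for AREG comes from the values by which it was chosen, so it is a description and not a test. ADAM17 (-1.20), FRMD8 (-1.08) and CCND1 (-1.26) lie furthest to the left.

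Among the ERK target genes, 5 of 9 tested were lower and 1 was higher, beside 21.2% and 20.8% of all tested genes. CCND1, which encodes cyclin D1, was at 165, 159 and 162 FPKM in shCtrl cells and at 67.6, 67.0 and 69.0 FPKM in shNAT10 cells (log2 fold change -1.26, limma adjusted p = 4.42e-05). The phosphatase genes DUSP6 (-0.94) and DUSP5 (-0.62) fell, as did the transcription factor genes ETV5 (-0.59) and ETV4 (-0.47), while PHLDA1 rose (0.35). FOSL1 (0.06, limma adjusted p = 0.616), IER3 (-0.01, limma adjusted p = 0.898) and EPHA2 (0.14, limma adjusted p = 0.121) did not pass the test. Of the feedback inhibitors, SPRY4 (-0.55) and LRIG1 (-0.59), which promotes degradation of ERBB receptors, fell, beside 21.2% of all tested genes called lower, and the other 13 did not pass the test. SPRY2, SPRY4, SPRED1 and SPRED2 are ERK target genes too but were counted among the inhibitors, and of them SPRY4 alone was called. ERRFI1, which binds and inhibits EGFR, was at 193 to 238 FPKM in shCtrl cells and at 205 to 218 FPKM in shNAT10 cells. Without shCtrl replicate 2, ERRFI1, LRIG3, CBL and SPRED2 were called lower as well, in a fit that called 3318 of 12982 tested genes lower.

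Calls among the adaptors and in the RAS-ERK cascade went in both directions. Most genes of the RAS-ERK cascade and of the PI3K-AKT arm were not called. Among the adaptors, PTPN11 (0.87), GAB2 (0.83), STAT3 (0.51), STAT5B (0.41) and PLCG1 (0.22) rose, and STAT5A (-0.69), SHC1 (-0.58) and SRC (-0.49) fell, of 13 tested, beside 20.8% and 21.2% of all tested genes. In the PI3K-AKT arm, with 8 genes tested, AKT1 rose from 11.2-12.3 to 21.6-23.2 FPKM (0.92). In the RAS-ERK cascade, with 11 genes tested, NRAS rose (0.34), and MAPK3 (-0.33) and KSR1 (-0.48) fell, beside the same shares of all tested genes. Of the further ligands, NRG1, which binds ERBB3, rose from 4.55, 2.96 and 4.01 FPKM to 5.90, 6.02 and 6.73 FPKM (0.70, limma adjusted p = 0.0121). NRG2 was at 2.91 to 3.57 FPKM and at 3.18 to 3.52 FPKM. EGF, EPGN, NRG3 and NRG4 were below the filter.

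In the acRIP-seq lists, AREG carried peaks in shCtrl cells but none after NAT10 KD, whereas EREG and TGFA carried peaks in shNAT10 cells alone. The 8 genes held 10 peaks in the shCtrl list, on AREG, HBEGF, EGFR and ERBB2, and 7 in the shNAT10 list, on EREG, HBEGF, TGFA and EGFR. BTC and ERBB3 held none. ERBB4, at or near 0 FPKM in every library, was listed with 3 peaks in the shCtrl list and 4 in the other, and of all genes with a peak, 22.0% in the shCtrl list and 22.5% in the shNAT10 list were below the expression filter. Each list covers a whole group, so there is no replicate error and no test, and the depth behind the lists is unknown. How the abundance of a transcript enters the peak calls was not tested, and whether the fold enrichment of the lists is on a common scale is not given in the sources used here. Of the 6 members that passed the expression filter, 4 carried a peak in the shCtrl list, beside 49.6% of tested genes, and 3 in the shNAT10 list, beside 47.7%. A peak in the shCtrl list alone was held by 2 of the 6 (15.8% of tested genes), and a peak in the shNAT10 list alone by 1 (13.9%).

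The first AREG peak, at chr4:74445164-74445404, began 31 bases into the transcript of 1240 bases and covered 182 bases of the 5′ UTR and the first 59 bases of the coding sequence. Its fold enrichment was 861, above 90.2% of the peaks in the shCtrl list, with a log10 p of -229. The second, at chr4:74452547-74454769, lay in 2 blocks and covered the last 88 coding bases and 32 bases after them, counting the stop codon with the 3′ UTR. It had a fold enrichment of 10.8 and a log10 p of -2.78, and only 1.84% of the list had a higher p-value. In the RNA-seq of shCtrl cells AREG was at 1.20 to 1.39 FPKM. Among tested genes at a mean of 1 to 2 FPKM in shCtrl cells, 23.2% carried a peak, and of the 3 members in this range AREG and HBEGF did and ERBB3 did not. In shNAT10 cells AREG had no listed peak at 7.34 to 8.80 FPKM.

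Coding parts of the peaks on AREG, HBEGF and EGFR are shown because they are the stretches of coding sequence that the lists call as peaks (GENCODE v29 transcripts, GRCh38, 5′ to 3′). Capitals mark the longest run of 4 or more CNN triplets in any frame, a pattern that has been linked to ac4C. The first HBEGF stretch joins exons across an intron and is the coding part of the shNAT10 peak, which lay inside the longer coding part (333 bases) of the first shCtrl peak. That longer part and the 10 coding bases of the second EGFR peak are not printed.
AREG peak 1, chr4:74445346-74445404, plus strand: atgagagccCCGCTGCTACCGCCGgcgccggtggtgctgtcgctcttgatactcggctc
AREG peak 2, chr4:74452547-74452634, plus strand: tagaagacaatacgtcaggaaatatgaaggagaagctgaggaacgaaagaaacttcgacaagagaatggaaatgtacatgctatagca
EGFR peak 1, chr7:55019278-55019350, plus strand: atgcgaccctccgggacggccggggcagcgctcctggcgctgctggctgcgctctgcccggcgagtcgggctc
HBEGF shNAT10 peak 1, chr5:140336022-140342812, minus strand: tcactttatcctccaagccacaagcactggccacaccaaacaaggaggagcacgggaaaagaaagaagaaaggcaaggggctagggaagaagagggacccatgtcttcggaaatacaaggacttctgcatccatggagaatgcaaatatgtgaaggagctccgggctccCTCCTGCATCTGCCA
HBEGF shCtrl peak 2, chr5:140334684-140334748, minus strand: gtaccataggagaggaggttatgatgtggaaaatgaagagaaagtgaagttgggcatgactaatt
The AREG start region held a run of 5 such triplets just after the start codon, and 26.0% of 558730 coding windows of 59 bases held a run of at least 4. The coding part of the second AREG peak held none, and cytosine made up 12.5% of it against 35.6% of the first. The start region of EGFR, richer in cytosine at 38.4%, held no such run, whereas 31.1% of windows of its length did. The HBEGF stretch common to both lists held a run of 5, and 56.6% of windows of 184 bases held a run of at least 4. In the longer shCtrl part the longest run was of 6, and 72.5% of windows of 333 bases held at least 4. The stretch of the second HBEGF peak held none and had 6.15% cytosine, whereas 28.2% of windows of 65 bases held at least 4.

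HBEGF, at about 1 FPKM, carried the highest fold enrichments of the 8 genes. Its shCtrl peaks, from the 5′ end, had fold enrichments of 2040, 1380, 760 and 191, and its shNAT10 peaks 498 and 1310. Of the 4 shCtrl peaks, 3 overlapped a shNAT10 peak. The peak nearest to the 5′ end lay in coding sequence in both lists, with 240 shared bases counting those in exons of other transcripts, and the shNAT10 peak in the 3′ UTR, chr5:140333082-140334068, shared 689 bases with the 2 shCtrl peaks there. The shCtrl peak at chr5:140334684-140334893, with 65 coding bases and 145 bases in exons of other transcripts, had no counterpart in shNAT10 cells.

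On EGFR, where expression was highest, the enrichments were low. In shCtrl cells the peaks were at the start of the coding sequence (chr7:55019201-55019350, fold enrichment 6.49), across a splice junction (chr7:55165428-55168633, 7.67, with 111 of 121 bases in an exon of another transcript) and in the 3′ UTR (chr7:55207584-55207764, 2.25). The last was above only 1.86% of the list. In shNAT10 cells both peaks lay in the 3′ UTR, at chr7:55207794-55207974 (9.13) and chr7:55210041-55210280 (23.1). None shared a base with a shCtrl peak, although the first began 30 bases past the shCtrl peak in the 3′ UTR. ERBB2 had 1 peak, in the 3′ UTR in shCtrl cells (chr17:39728258-39728468, 4.42). The peak of EREG (chr4:74387584-74387793, fold enrichment 138) and those of TGFA (chr2:70449910-70450120, 73.1, and chr2:70447968-70448326, 209) lay entirely in the 3′ UTR in shNAT10 cells, in which the mRNA of both genes was at higher values. Of the genes with a peak in 1 list alone, EREG and TGFA had it in the group with higher mRNA values, TGFA being below the expression filter. AREG had its peaks in the group with lower values. For ERBB2, with its peak in the shCtrl list, the mRNA values overlapped (log2 fold change -0.08). A link between peaks and mRNA values was not tested.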

How the data were processed

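The members and gene lists were chosen with earlier results of these data known. The authors deposited FPKM for 58302 genes in 6 libraries, of which 58039 were found in GENCODE v29 (GRCh38, the build in the submitters' processing notes, which also name HISAT2 2, HTSeq 0.11.0 and DESeq2 1.22.2 without saying which data each was run on). The authors deposited acRIP peaks as 1 list per group, with a fold enrichment (a ratio, read from the file headers as IP over input) and a p-value for each peak. The peak caller is not given in the sources used here. Starts were converted to count from 1, after a check that 99.7% of inner block starts lay at annotated exon starts.

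FPKM were transformed to log2(FPKM + 0.1) and genes with at least 1 FPKM in 3 of 6 libraries were fitted with limma 3.58.1 in R 4.3.3 (eBayes, trend), shNAT10 minus shCtrl, with Benjamini-Hochberg adjustment over 12982 genes, and the script was tested on simulated data. Calls used an adjusted p under 0.05 and, as a second rule, a change of more than 1 on the log2 scale. Whole reads were recovered from the FPKM steps (tolerance 1e-06 reads) for 99.99% of genes. Peaks were placed on 1 coding transcript per gene (lowest APPRIS principal number, then longest). Peaks overlapped when they shared at least 1 base, and, as an alternative, when the overlap was at least 50% of each peak. Genes named beyond the members were NAT10, the pathway list, the 5 genes most like AREG and those that start within 500 kb of AREG. Alternatives were the pseudocount, the filter, the scaling, a replicate block, the trend, voom on recovered reads, each library left out in turn and the stronger 50% of peaks. Some genes of the lists are not reported here by name.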

Additional observations from a re-analysis of the deposited data

How the results depend on the processing

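EREG and NAT10 kept their direction and call under all 15 alternatives run (EREG log2 fold change 1.18 to 1.47, adjusted p from limma 1.38e-05 to 0.00242). AREG went from 1.96 (pseudocount of 1) to 2.69 (TPM) and stayed at 2.46 to 2.59 with 1 library left out. EGFR (0.025 without shCtrl replicate 1) and ERBB2 (0.029 as TPM) reversed, and EGFR was called lower without shCtrl replicate 2 (-0.46), as HBEGF was without the mean-variance trend. Over all genes, calls higher past a log2 fold change of 1 numbered 378, against 198 with a pseudocount of 1, 221 with a minimum FPKM of 5 and 573 as TPM. Calls lower past it numbered 463, against 231 and 227 with the first pair of these settings. With 1 library left out, calls at an adjusted p under 0.05 were 1774 to 3303 higher and 1765 to 3318 lower, and pathway genes called lower were 14 to 27, the last without shCtrl replicate 2. Voom on the recovered reads called 2948 higher and 2691 lower. Without the filter, calls past the fold were 488 higher and 691 lower.

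Replicate numbers are shared by the groups, but the correlations of deviations of same-numbered libraries were -0.04, 0.06 and 0.11, so the numbers were not taken to pair the samples. With a replicate block, 2524 genes were called higher and 2603 lower. Among the tested members other than AREG, for which no test is given, EREG alone was still called.

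Of the 10 shCtrl peaks on the members, 5 were among the 50% of the list with the highest fold enrichment and 4 among the 50% with the lowest p-values, and of the 7 shNAT10 peaks, 4 had the lower p-values. Of the 3 overlapping shCtrl peaks, 3 remained among the highest fold enrichments, 1 among the lower p-values and 2 at a reciprocal overlap of at least 50%. The low reads of AREG, HBEGF, TGFA and BTC limit the precision of their values. The causes of these differences were not tested.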
